A study of Mus musculus with 8 samples.

Results

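The 34 genes described here encode enzymes of fatty acid oxidation and known targets of the nuclear receptor PPAR-alpha, measured in the kidneys of mice given bisphenol A (BPA) or vehicle. BPA is a building block of polycarbonate that binds estrogen receptors weakly. The genes were chosen by name and not by a threshold on their levels, and all 34 were found among the 54532 genes of the deposited table. They were divided into 14 mitochondrial genes, 6 peroxisomal genes and 14 regulated genes, the last group being the receptor gene Ppara and targets outside the oxidation spiral.

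Polyadenylated RNA was sequenced from 4 kidney libraries after BPA and 4 after vehicle. The library names give ICR, an outbred mouse stock in which animals also differ in genotype. The sources used here give no dose, route, duration, age or composition of the vehicle. Whether the 4 libraries of a group came from separate animals is not stated, so the tests reflect the spread between libraries, which may be technical.

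Long-chain fatty acids enter mitochondria as carnitine esters and are shortened there by repeated rounds of dehydrogenation, hydration, a second dehydrogenation and thiolysis. Peroxisomes shorten very long chains with a separate set of enzymes. PPAR-alpha is a ligand-activated receptor that binds DNA with RXR and raises transcription of genes of both routes when fatty acids are abundant, as in fasting. The proximal tubule is the kidney segment richest in mitochondria and draws most of its energy from fatty acids.

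Recovered reads ranged from 15944081 to 17351540 per library. FPKM, which adjusts reads for gene length and a library size, is given as deposited by the authors. The size behind these values was not the recovered read total, for example 18315600 against 17351540 in vehicle 1 and 16282400 against 17226655 in BPA 3. It was above that total in vehicle 1, 2 and 4 and BPA 1 and 2, and below it in vehicle 3 and BPA 3 and 4. The sources used here do not say how this size was set. The 34 genes were all well above the filter of a mean of 0.5 FPKM. The lowest library held 67 reads of the lowest member, Plin5. All 9 proximal tubule markers were detected, and their summed level was 3880 to 4847 FPKM after vehicle and 4183 to 5612 after BPA. Libraries that stand apart are BPA 4, with the highest mitochondrially encoded share of reads (14.2%) and the fewest genes above 0 (17174), and vehicle 4, with skeletal muscle markers at 248 FPKM against at most 1.17 elsewhere. Summed white adipocyte markers were 0.576, 69.6, 29.0 and 260.3 FPKM in vehicle 1 to 4 and 13.9, 0.0957, 15.4 and 0.853 in BPA 1 to 4. Summed brown adipocyte markers were 8.27, 28.2, 6.44 and 33.0 FPKM in vehicle 1 to 4 and 9.49, 8.74, 12.8 and 4.41 in BPA 1 to 4. Of these markers Ucp1 was 7.18 and 1.41 FPKM in vehicle 2 and 4 and 0 elsewhere. Cidea and Cox8b were also highest in vehicle 2 and 4, while Cox7a1 was 4.41 to 11.7 FPKM across the libraries and Elovl3 was 0. The mitochondrially encoded share was 7.41 ± 0.615% after vehicle and 10.9 ± 2.20% after BPA (SD, n = 4 each, 2-sided exact permutation test, p = 0.0286, which no split of 8 libraries can undercut, and adjusted p = 0.429 over 15 library measures), and its part in the results was not tested. Changes of single genes were also related to the GC content of their transcripts, with a Spearman correlation of -0.40 across all 13376 genes tested and -0.40 across the 34, and genes are not independent replicates.

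None of the 34 genes passed the test of BPA against vehicle (limma on log2(FPKM + 1), Benjamini-Hochberg adjusted p under 0.05 over 13376 genes). Over all genes tested 1 gene passed, which is 0.00748%, and the smallest adjusted p among the 34 was 0.374. An unadjusted p under 0.05 was found for 3 of the 34, all with lower levels after BPA (8.82%, against 6.83% of all genes tested in that direction), and for 0 with higher levels (against 4.18%). The 3 were Angptl4, Acaa1a and Pex11a, and their share is near that of all genes. In 0 of the 34 did the 4 BPA libraries all lie below the 4 vehicle libraries (4.66% of all genes) or all above them (3.23%).

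Of the 34 log2 changes 11 were above 0 and 23 below, with a median of -0.11 beside -0.01 over all genes tested. Lower changes were 67.6% of the 34 and 52.0% of all genes tested. Mitochondrial genes had a median of -0.11 (5 higher, 9 lower), peroxisomal genes -0.19 (1 higher, 5 lower) and regulated genes -0.08 (5 higher, 9 lower). After GC correction they were -0.06, -0.15 and -0.07, and with library weights the mitochondrial median was 0.03. Rescaling to a common nuclear FPKM sum gave -0.04, -0.12 and -0.02 in the same order, and quantile normalization gave -0.01, -0.13 and -0.04. The median of all 34 was then -0.04 and -0.03, beside 0.04 and 0.02 over all genes tested. The medians also depended on single libraries. Vehicle 3 had the highest level of 16 of the 34 genes (47.1%, against 15.6% of all genes), and without it the medians were -0.02 for all 34, -0.02 for mitochondrial, -0.10 for peroxisomal and 0.01 for regulated genes. BPA 4 had the lowest level of 12 of the 34 (35.3%, against 28.0% of all genes), 8 of them mitochondrial. Within replicates 1 and 2 the median of the mitochondrial genes was 0.12 and within replicates 3 and 4 it was -0.34, and no test was run on these medians. The labels do not say that a replicate number marks a shared day or batch. Summed clock gene levels also differed between the numbers, at 14.5, 28.6, 56.2 and 55.4 FPKM in vehicle 1 to 4 and 21.6, 33.5, 81.1 and 60.6 in BPA 1 to 4. That sum joins genes of opposite direction. Arntl was 4.27, 3.76, 0.550 and 0.337 FPKM and 3.17, 2.22, 0.106 and 0.185 in the same order. Ciart was 0.217, 0.718, 5.09 and 4.66 and 0.204, 0.498, 7.88 and 7.57. Dbp, Per1 and Per2 were also higher in replicates 3 and 4 of each group, and Nr1d1 was not. The part of these clock genes in the medians was not tested.

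**Figure D1:**
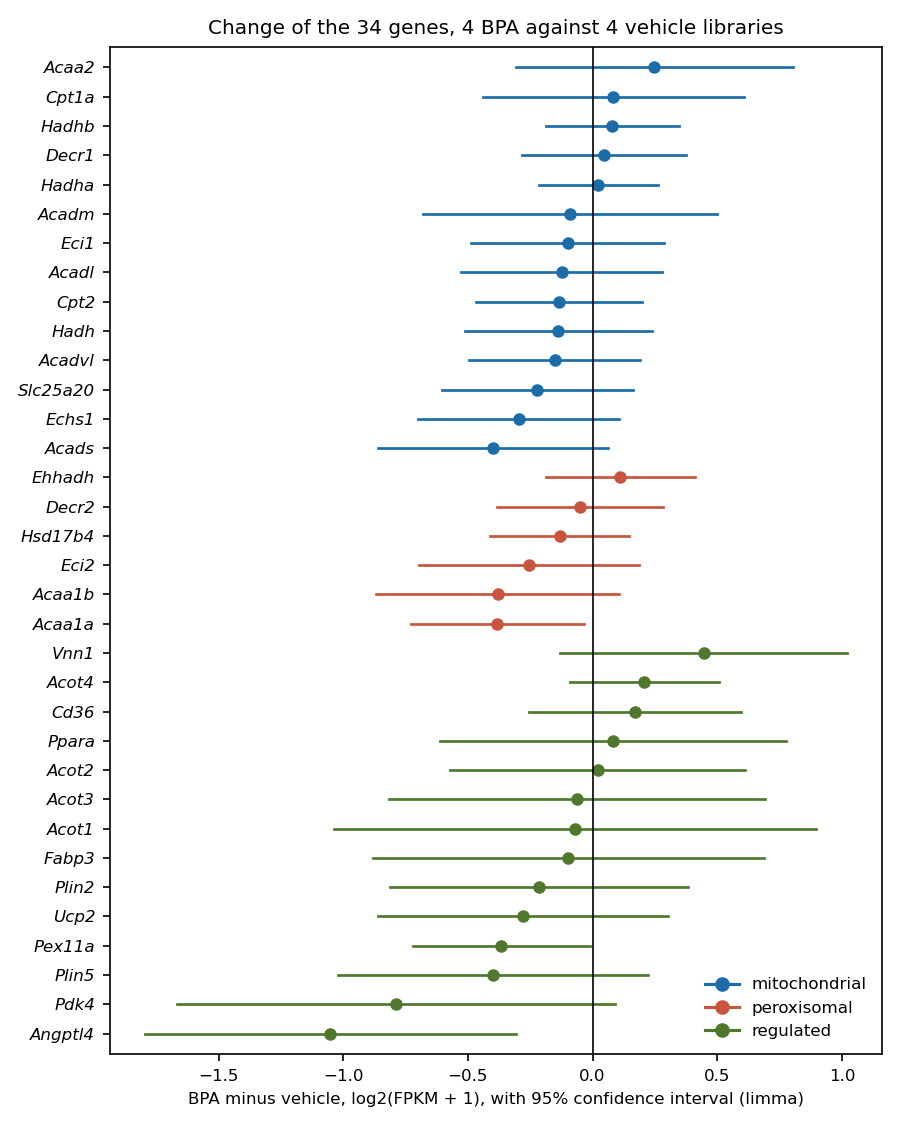
Log2 change of each of the 34 genes between 4 BPA and 4 vehicle libraries on the log2(FPKM + 1) scale, with the limma 95% confidence interval as a line and colours for the mitochondrial, peroxisomal and regulated groups. The intervals of 31 genes include 0, and those of Angptl4, Acaa1a and Pex11a lie below it before adjustment.

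**Figure D2:**
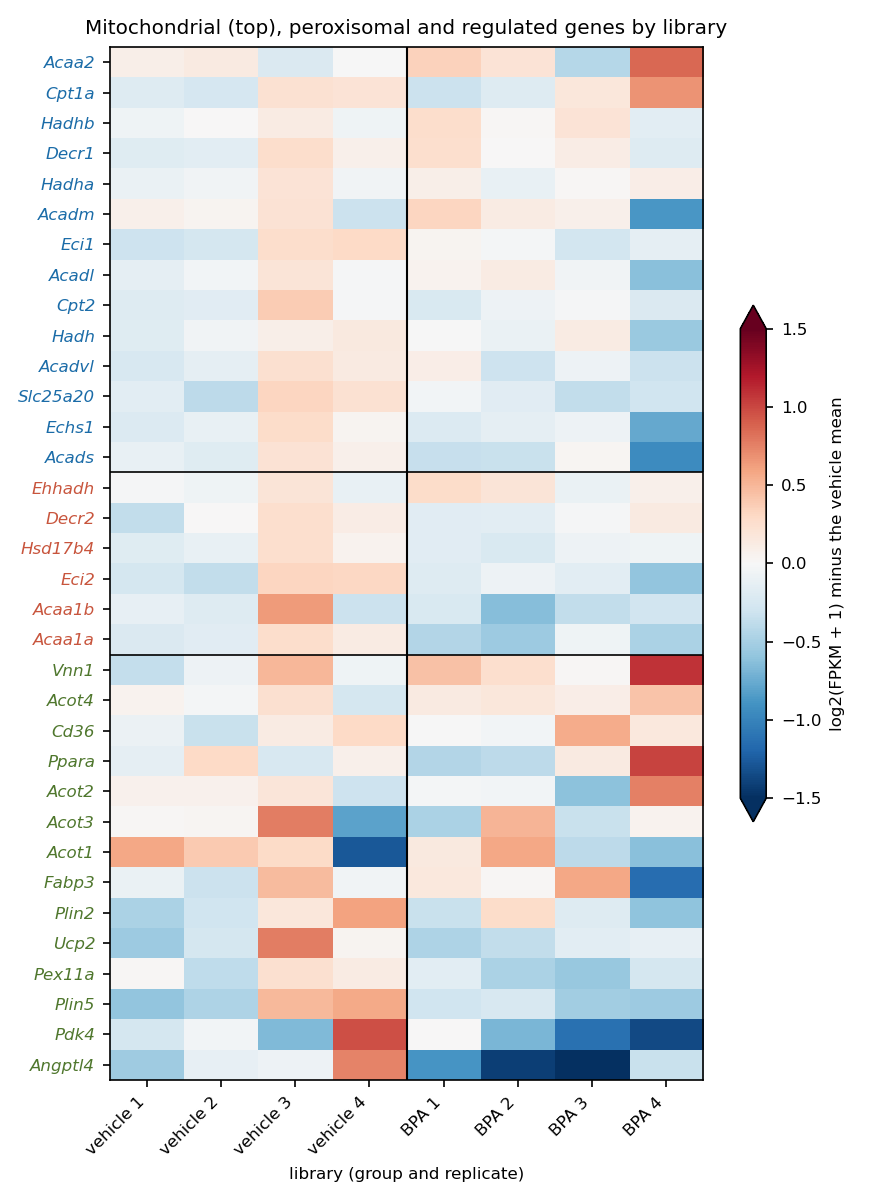
Level of each gene in each of the 8 libraries as log2(FPKM + 1) minus the mean of the 4 vehicle libraries, red above and blue below that mean, with rows grouped as mitochondrial, peroxisomal and regulated. Vehicle 3 is red for most rows, and BPA 4 holds strong departures of both signs, red for Vnn1 and Ppara and blue for Pdk4 and Fabp3.

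Entry of fatty acids into mitochondria begins with Cpt1a, the carnitine palmitoyltransferase of the outer membrane and the rate-controlling step. Its levels were 97.0, 92.8, 130.4 and 128 FPKM in vehicle 1 to 4 and 88.5, 97.0, 125 and 177 in BPA 1 to 4. The groups overlapped, and the highest value by a wide margin was BPA 4. The log2 change was 0.08 (95% confidence interval -0.44 to 0.61), and without BPA 4 it was -0.11. Slc25a20, the carrier that exchanges acylcarnitines for carnitine across the inner membrane, averaged 9.39 ± 2.34 FPKM after vehicle and 7.77 ± 0.874 after BPA (SD, n = 4), and all 4 BPA libraries lay below the vehicle mean. Cpt2, which returns the acyl group to coenzyme A inside, averaged 83.8 ± 16.5 FPKM after vehicle and 75.4 ± 5.60 after BPA, and vehicle 3 at 108 FPKM stood above the other 7 libraries, which ranged from 70.3 to 82.0. Neither Slc25a20 nor Cpt2 passed the test, with adjusted p-values of 0.614 and 0.718 (limma).

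Acyl-CoA dehydrogenases carry out the first step of each round, each for a range of chain lengths. Medium-chain Acadm, among the most abundant of the 34, was 306, 299, 337 and 231 FPKM in vehicle 1 to 4 and 364, 315, 305 and 158 in BPA 1 to 4. Its lowest library was BPA 4, and 3 of 4 BPA libraries lay above the vehicle mean. The log2 change of Acadm was -0.09 (95% confidence interval -0.68 to 0.50) with all libraries and 0.17 without BPA 4. Short-chain Acads was 123, 118, 155 and 141 FPKM after vehicle and 104, 106, 136 and 68.8 after BPA, with 3 of 4 BPA libraries below every vehicle library and BPA 3 inside the vehicle range. Acads had the lowest p of the mitochondrial genes (log2 change -0.40, 95% confidence interval -0.86 to 0.06, adjusted p = 0.486, limma), and after correction for GC content its change was -0.19. Long-chain Acadl averaged 165 ± 16.0 FPKM after vehicle and 154 ± 32.6 after BPA, and very-long-chain Acadvl averaged 48.9 ± 7.77 FPKM after vehicle and 43.9 ± 6.49 after BPA. Both group means were lower after BPA, but Acadl had a change of 0.04 without BPA 4.

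The trifunctional protein of the inner membrane joins the remaining steps for long chains, with its alpha subunit encoded by Hadha and its beta subunit by Hadhb. On chromosome 5 the 2 genes stand head to head, Hadha on the minus strand (30118304 to 30155162) and Hadhb on the plus strand (30155248 to 30184593), and 85 bases separate their start sites. That spacer is shown because both promoters share it. It is given in the direction of Hadhb at chr5:30155163-30155247 (GRCm38, RefSeq sequence), with GC boxes (GGGCGG) in capitals.

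Hadha-Hadhb: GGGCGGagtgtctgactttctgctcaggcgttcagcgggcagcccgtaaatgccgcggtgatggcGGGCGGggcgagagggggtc

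Hadha was 18.2, 18.9, 22.7 and 18.8 FPKM in vehicle 1 to 4 and 20.9, 18.0, 19.7 and 21.0 in BPA 1 to 4. Hadhb was 22.3, 23.4, 25.3 and 22.2 and 28.1, 23.5, 26.9 and 20.7 in the same order. Both sets of levels overlapped between groups and varied little, and the intervals of their log2 changes, -0.22 to 0.26 for Hadha and -0.19 to 0.35 for Hadhb, were among the narrowest of the 34. The ratio of Hadhb to Hadha in FPKM was 1.12 to 1.24 in the vehicle libraries and 1.31 to 1.36 in BPA 1 to 3, while BPA 4 had the lowest ratio, 0.985. GC correction gave Hadhb a change of -0.06 in place of 0.08.

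Separate matrix enzymes act on shorter chains. Echs1, the short-chain enoyl-CoA hydratase, averaged 37.3 ± 5.77 FPKM after vehicle and 30.4 ± 6.27 after BPA (SD, n = 4), with all 4 BPA libraries below the vehicle mean and the lowest value in BPA 4 (21.2 FPKM), without which the change of -0.30 was -0.14. Hadh, the 3-hydroxyacyl-CoA dehydrogenase, averaged 138 ± 14.0 FPKM after vehicle and 127 ± 24.2 after BPA, and BPA 4 (92.8 FPKM) was again the lowest library. Acaa2, the matrix thiolase that releases acetyl-CoA, averaged 55.8 ± 5.88 FPKM after vehicle and 69.5 ± 25.1 after BPA and had the largest positive change of the mitochondrial genes, 0.25 (95% confidence interval -0.31 to 0.80). This rested on BPA 4 at 102 FPKM, while BPA 3 at 40.9 was the lowest library of all, and without BPA 4 the change was 0.04. Unsaturated chains need 2 auxiliary enzymes, the isomerase Eci1 (78.1 and 71.6 FPKM for vehicle and BPA) and the dienoyl-CoA reductase Decr1 (62.4 and 64.4 FPKM), with log2 changes of -0.10 and 0.05. None of these 5 genes had an unadjusted p under 0.05.

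**Figure D3:**
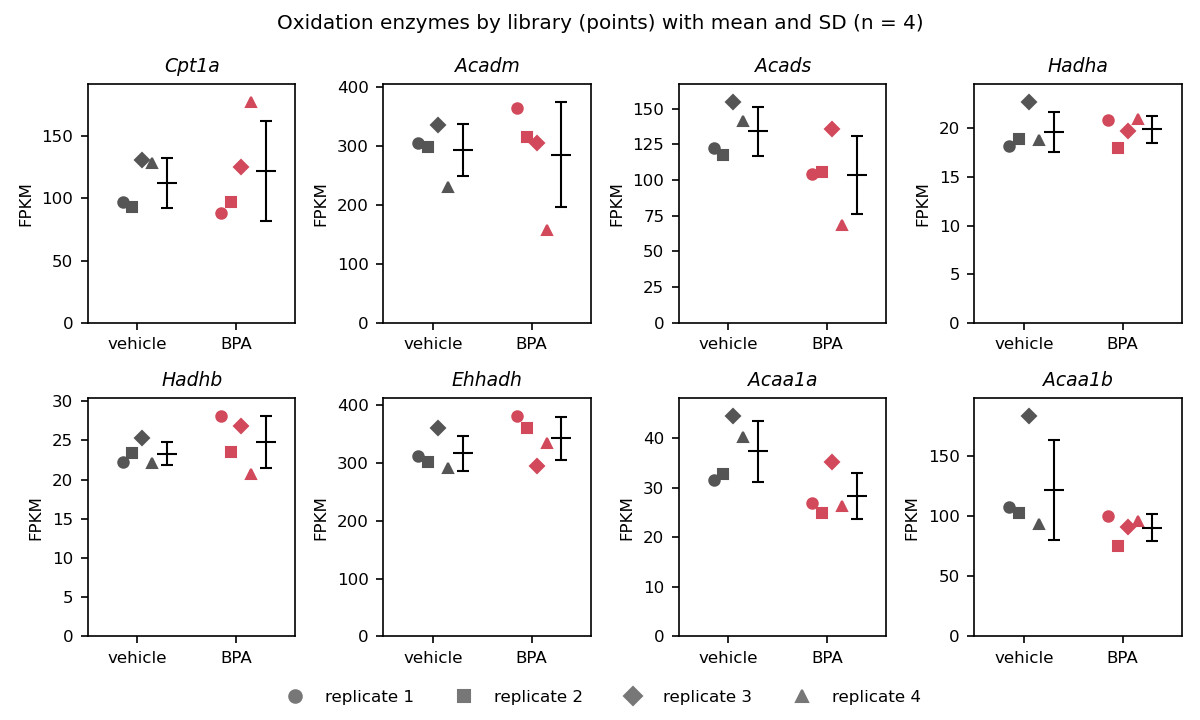
FPKM of 8 oxidation genes in each library, 4 vehicle (grey) and 4 BPA (red), with a symbol for each replicate number and the mean and SD (n = 4) as a black bar, each panel on its own axis from 0. In every panel the groups overlap, BPA 4 is the lowest point for Acadm, Acads and Hadhb and the highest for Cpt1a, and vehicle 3 is the highest for Acads, Hadha, Acaa1a and Acaa1b.

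In peroxisomes a bifunctional enzyme hydrates and then oxidises the chain. Ehhadh, the classical PPAR-alpha-induced form, was 313, 303, 361 and 293 FPKM in vehicle 1 to 4 and 382, 361, 295 and 334 in BPA 1 to 4. It was the most abundant of the peroxisomal genes per length, the groups overlapped, and 3 of 4 BPA libraries were above the vehicle mean (log2 change 0.11, 95% confidence interval -0.19 to 0.41). Hsd17b4, the D-specific form that also handles branched chains, averaged 77.1 ± 10.6 FPKM after vehicle and 69.8 ± 3.77 after BPA (SD, n = 4), and all 4 BPA libraries were below the vehicle mean.

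The last peroxisomal step is thiolysis by Acaa1a and Acaa1b, 2 near-identical genes on chromosome 9 with 182582 bases between them. Their longest annotated transcripts were 96.6% identical over 1428 bases, so reads of one could have been assigned to the other. Acaa1a also overlaps Myd88 on the opposite strand, and the sources used here do not say how shared or antisense reads were treated. Acaa1a was 31.6, 32.8, 44.5 and 40.2 FPKM in vehicle 1 to 4 and 27.0, 25.0, 35.2 and 26.3 in BPA 1 to 4. Only BPA 3 reached into the vehicle range. Its log2 change was -0.38 (95% confidence interval -0.73 to -0.04), with an adjusted p of 0.429 (limma). The unadjusted p was under 0.05 in 12 of 21 alternatives.

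Acaa1b was 108, 103, 184 and 93.4 FPKM after vehicle and 100.2, 74.9, 90.6 and 96.3 after BPA. Vehicle 3 stood far above the other 7 libraries, and the log2 change of -0.38 (95% confidence interval -0.87 to 0.11) became -0.17 without it. After GC correction the changes of Acaa1a and Acaa1b were -0.26 and -0.19. The ratio of Acaa1b to Acaa1a was 2.32 to 4.12 in vehicle and 2.58 to 3.72 in BPA libraries, so the pair kept overlapping proportions. The stretches just upstream of the 2 genes are shown, each in its gene's direction. The copies are alike in transcript but differ here in the place of their CCAAT boxes, in capitals on either strand. The stretches are chr9:119341160-119341293 on the plus strand for Acaa1a and chr9:119157094-119157227 on the minus strand for Acaa1b (GRCm38, RefSeq promoters). Outside them, further CCAAT boxes begin at -199 and 4 from the start site of Acaa1a and at -185, 9 and 12 from that of Acaa1b. Neither stretch overlaps an exon in GENCODE M21, and the gene model of Acaa1a in the table begins further upstream, at 119339676.

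Acaa1a: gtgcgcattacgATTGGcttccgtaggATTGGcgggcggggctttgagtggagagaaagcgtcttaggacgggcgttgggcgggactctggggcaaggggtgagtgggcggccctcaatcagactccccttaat
Acaa1b: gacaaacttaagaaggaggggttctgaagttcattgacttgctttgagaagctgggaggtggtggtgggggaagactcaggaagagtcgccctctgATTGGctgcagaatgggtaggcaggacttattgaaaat

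Unsaturated chains in peroxisomes are handled by Eci2 and Decr2. Eci2, an enoyl-CoA isomerase, averaged 19.8 ± 5.18 FPKM after vehicle and 16.2 ± 2.54 after BPA, with all 4 BPA libraries below the vehicle mean, and vehicle 3 and 4 at 24.4 and 24.2 FPKM above the other 6 (12.5 to 18.2). Decr2, a dienoyl-CoA reductase, averaged 20.3 ± 3.72 FPKM after vehicle and 19.4 ± 1.99 after BPA, and its change of -0.05 was 0.02 after quantile normalization. Pex11a, which promotes the division of peroxisomes, is grouped with the regulated genes and was 19.4, 14.4, 22.7 and 20.8 FPKM in vehicle 1 to 4 and 16.9, 13.4, 12.5 and 15.7 in BPA 1 to 4. Vehicle 2 lay among the BPA libraries and the other 3 vehicle libraries lay above all of them. The log2 change of Pex11a was -0.37 (95% confidence interval -0.72 to -0.01), with an adjusted p of 0.444 (limma). Its unadjusted p was under 0.05 in 10 of 21 alternatives.

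Ppara itself (chr15:85734983-85802819, plus strand) was 7.02, 9.79, 6.42 and 8.21 FPKM in vehicle 1 to 4 and 5.48, 5.68, 8.63 and 16.7 in BPA 1 to 4. BPA 1 and 2 were below every vehicle library and BPA 4 was above every other library. The log2 change was 0.08 (95% confidence interval -0.61 to 0.77) with all libraries and -0.23 without BPA 4, so no direction can be given.

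Angptl4 (chr17:33773750-33781575, minus strand) had the largest difference of the 34. It encodes a secreted inhibitor of lipoprotein lipase and is induced by PPAR-alpha and PPAR-gamma ligands in many tissues, adipose tissue among them. Its levels were 6.85, 9.42, 9.79 and 18.0 FPKM in vehicle 1 to 4 and 5.14, 3.26, 2.86 and 7.99 in BPA 1 to 4. BPA 1, 2 and 3 were below every vehicle library, BPA 4 was above vehicle 1, and vehicle 4 was the highest. The means were 11.0 ± 4.83 FPKM after vehicle and 4.81 ± 2.34 after BPA (SD, n = 4), the log2 change was -1.05 (95% confidence interval -1.80 to -0.31) and the adjusted p was 0.374 (limma).

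The part of adipocytes in the level of Angptl4 was not tested. Vehicle 4 was highest and vehicle 1 lowest of the vehicle libraries in both Angptl4 and the summed white adipocyte markers. Vehicle 3 had more Angptl4 than vehicle 2 and fewer of these markers. BPA 4, with markers at 0.853 FPKM, had the most Angptl4 of the BPA group. All 7 white adipocyte markers were detected in at least 1 library. Adipoq, which defines adipocytes, was 0, 7.17, 2.53 and 22.2 FPKM after vehicle and 1.29, 0, 1.87 and 0 after BPA. Without vehicle 2 and 4, a setting chosen after seeing the data, the change of Angptl4 was -0.75 and its unadjusted p was no longer under 0.05. That setting has fewer libraries, which alone can raise a p-value, so it does not measure the part of adipocytes. The other 20 of 21 alternatives kept the unadjusted p of Angptl4 under 0.05. Within replicates 1 and 2 and within replicates 3 and 4 the change was -0.82 and -1.28. Over all alternatives with a test it ranged from -1.29 to -0.75. In whole tissue, fewer cells of a type and less RNA per cell cannot be told apart.

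Pdk4, the kinase that shuts pyruvate out of oxidation when fatty acids are burned, was 5.41, 6.49, 3.85 and 14.1 FPKM in vehicle 1 to 4 and 6.71, 3.78, 2.55 and 2.02 in BPA 1 to 4. Vehicle 4 was higher than any other library, vehicle 3 lay between BPA 1 and BPA 2, and the groups overlapped. The log2 change was -0.79 (95% confidence interval -1.67 to 0.09), with an adjusted p of 0.478 (limma). Vehicle 4 also had the highest muscle, white adipocyte and brown adipocyte marker sums, and their part in the level of Pdk4 was not tested. Without vehicle 4 the change was -0.46, and within replicates 1 and 2 it was -0.19 against -1.39 within replicates 3 and 4.

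Plin2 and Plin5 coat lipid droplets, Plin2 in most cells that store lipid and Plin5 in cells with many mitochondria. Plin2 was 11.4, 13.0, 18.5 and 25.2 FPKM in vehicle 1 to 4 and 12.7, 19.8, 14.1 and 10.4 in BPA 1 to 4. The groups overlapped, with vehicle 4 above every BPA library, and the change of -0.21 (95% confidence interval -0.81 to 0.38) was -0.01 without vehicle 4 and 0.11 without both replicates 4. Plin5 averaged 3.57 ± 1.85 FPKM after vehicle and 2.26 ± 0.355 after BPA (SD, n = 4). Vehicle 3 and 4 held 5.02 and 5.33 FPKM of Plin5, while the other 6 libraries held 1.83 to 2.64, so the difference in means rested on those 2 libraries, and within replicates 1 and 2 the change was 0.26.

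Cd36, the fatty acid translocase of the cell surface, was 275, 232, 317 and 359 FPKM in vehicle 1 to 4 and 290.4, 284, 431 and 327 in BPA 1 to 4. It was of the same order as Acadm and Ehhadh per length, the groups overlapped, and the change was 0.17 (95% confidence interval -0.26 to 0.59). It was 0.02 after GC correction and 0.04 without BPA 3. Fabp3, a cytosolic fatty acid carrier, averaged 32.1 ± 8.22 FPKM after vehicle and 32.0 ± 14.0 after BPA and ranged from 13.7 FPKM in BPA 4 to 47.5 in BPA 3. Its processed pseudogene Fabp3-ps1 is 99.3% identical over 402 bases, and at 0 to 0.573 FPKM it held few reads. Ucp2, an uncoupling protein family member of the inner membrane, averaged 22.1 ± 9.82 FPKM after vehicle and 17.0 ± 2.07 after BPA, with vehicle 3 at 36.1 FPKM and the other 7 libraries at 13.9 to 21.3. Vnn1, a pantetheinase that yields cysteamine and is a marker of PPAR-alpha activity in liver, averaged 22.4 ± 6.23 FPKM after vehicle and 31.3 ± 11.1 after BPA and had the largest positive change of the 34 (log2 0.45, 95% confidence interval -0.13 to 1.02, adjusted p = 0.513, limma). BPA 4 held the highest Vnn1 level, 47.2 FPKM, and without it the change was 0.23.

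The acyl-CoA thioesterases Acot2, Acot1, Acot4 and Acot3 release free fatty acids from coenzyme A and stand in this order on the plus strand of chromosome 12. Acot2 acts in mitochondria, Acot1 in the cytosol, and Acot3 and Acot4 in peroxisomes. Acot1 was 20.2, 17.6, 16.3 and 4.85 FPKM in vehicle 1 to 4 and 14.7, 20.1, 9.79 and 8.17 in BPA 1 to 4. Vehicle 4 was the lowest and vehicle 1 the highest library, so both extremes were in 1 group. Acot2 was 10.7, 10.7, 11.6 and 8.02 and 9.97, 9.90, 6.29 and 17.9 in the same order, with its extremes, 6.29 and 17.9 FPKM, in BPA 3 and BPA 4. Neither gene showed a separation of the groups. Transcripts of Acot1 and Acot2 were 93.8% identical over 1337 bases, so their split is uncertain. Their ratio (Acot1 to Acot2) was lowest in both replicates 4, at 0.604 in vehicle and 0.456 in BPA, against 1.40 to 2.03 in the other 6 libraries.

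Acot4 was the single member with all 4 BPA libraries above the vehicle mean, at 12.5 ± 1.97 FPKM after vehicle and 14.6 ± 1.68 after BPA (SD, n = 4, log2 change 0.21, 95% confidence interval -0.09 to 0.51, adjusted p = 0.550, limma). Without vehicle 4 the change of Acot4 was 0.12. Acot3, the lowest of the 4 thioesterases, averaged 3.81 ± 2.08 FPKM after vehicle and 3.44 ± 1.42 after BPA. Acot4 also shares 543 bases at 97.1% identity with Acot6, and both Acot3 and Acot4 overlap the transcript 4732463B04Rik, which was at 0.495 to 1.33 FPKM.

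**Figure D4:**
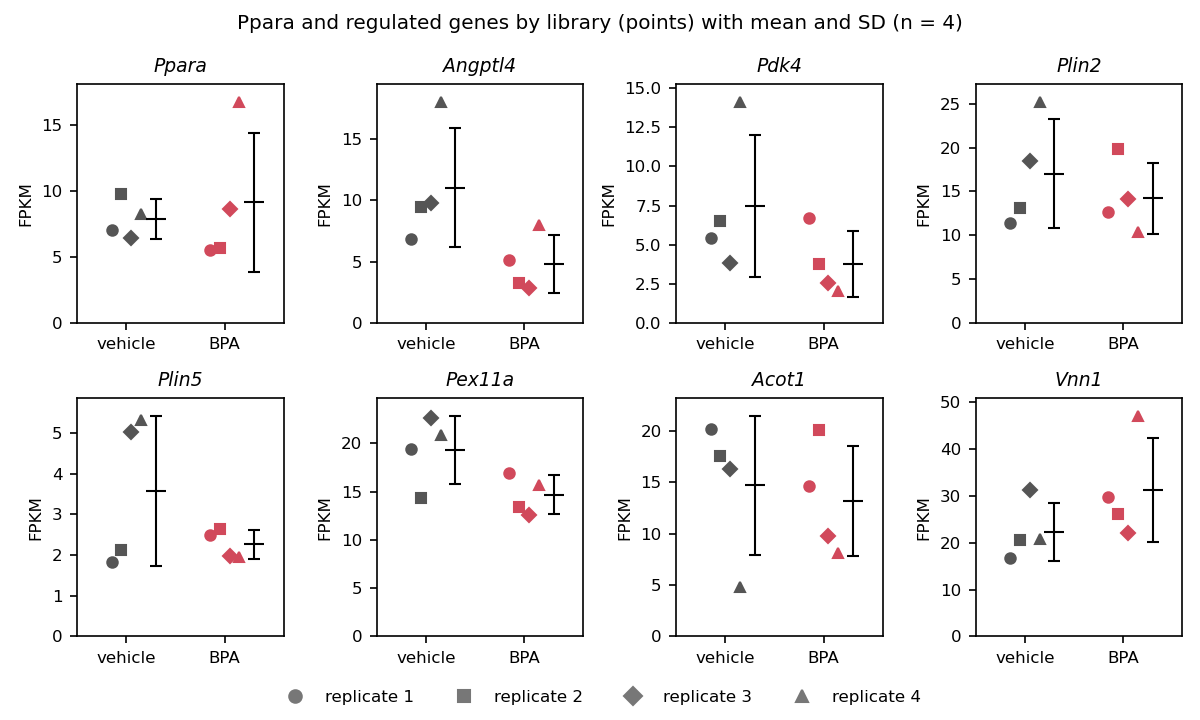
FPKM of Ppara and 7 regulated genes in each library, 4 vehicle (grey) and 4 BPA (red), with a symbol for each replicate number and the mean and SD (n = 4) as a black bar, each panel on its own axis from 0. Angptl4 has 3 BPA libraries below all vehicle libraries, Plin5 has vehicle 3 and 4 apart from the rest, and BPA 4 is the highest point for Ppara and Vnn1.

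PPAR-alpha and RXR bind a direct repeat of 2 hexamers with 1 base between them, written AGGTCANAGGTCA and called DR1. Promoter windows from 250 bases before to 50 bases after RefSeq start sites (GRCm38.p6) were found for 29 of the 34 genes. Allowing 2 mismatches and both strands, 5 of the 29 held a match (17.2%), while 3.83% of the 9442 tested genes with such a window and 3.86% of all 32851 windows did. These 5 matches are shown with 8 bases on each side in the direction of the gene, the match in capitals, because they are the stretches nearest to the receptor's element in these windows. They lie at chr4:86670264-86670292 (minus strand) for Plin2, chr5:17835939-17835967 (minus) for Cd36, chr7:140116484-140116512 (minus) for Echs1, chr9:108662134-108662162 (plus) for Slc25a20 and chr12:84038358-84038386 (plus) for Acot4.

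Plin2: agctttcaGGACCCCTGACCTaagtcaga
Cd36: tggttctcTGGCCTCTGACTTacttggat
Echs1: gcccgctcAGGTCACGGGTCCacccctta
Slc25a20: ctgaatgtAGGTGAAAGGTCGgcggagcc
Acot4: ccgaagcaTGACCTTTGGCCGgtctgtgc

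In Plin2, Cd36 and Acot4 the match reads on the opposite strand. The first base of the match stands 225, 63 and 83 bases before the start site in Plin2, Cd36 and Echs1, 13 bases before it in Acot4 and 7 bases after it in Slc25a20. By GENCODE M21 the match of Slc25a20 lies in its 5′ untranslated region, that of Cd36 in an intron and that of Echs1 within the neighbouring gene Paox. A match is a string of letters and not a measured site. The log2 changes of these 5 genes were -0.21 for Plin2, 0.17 for Cd36, -0.30 for Echs1, -0.22 for Slc25a20 and 0.21 for Acot4, of both signs and with no unadjusted p under 0.05. The element of estrogen-related receptors, TCAAGGTCA on either strand with no mismatch, was in 0 of the 29 and in 0.423% of all windows. CCAAT boxes on either strand were in 14 of the 29 (48.3%), against 42.0% of tested genes.

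A further 109 genes of the same pathways were listed with earlier results known, and 101 of them were tested. None passed the test (smallest adjusted p 0.287, limma), 32 changes were above 0 and 69 below, and the median was -0.10. Lower changes were 68.3% of the 101 and 52.0% of all genes tested. An unadjusted p under 0.05 was found for 4 higher and 10 lower genes (3.96% and 9.90% of the 101, against 4.18% and 6.83% of all genes tested). The groups did not overlap for 3 higher genes, Acsl5 and Ppargc1a among them, and for 5 lower ones (Acad12, Pex6, Rxrb, Mlycd and Lipe). These are 2.97% and 4.95% of the 101, near the 3.23% and 4.66% of all genes.

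Among 9 tested genes of fatty acid entry and activation (6 higher, 3 lower, median 0.0031), the acyl-CoA synthetase Acsl5 was 7.09, 9.04, 5.21 and 8.58 FPKM in vehicle 1 to 4 and 11.2, 12.0, 10.2 and 9.11 in BPA 1 to 4, a log2 change of 0.47 (95% confidence interval 0.10 to 0.85, adjusted p = 0.387, limma). Every BPA library was above every vehicle library. Acsl1, its best known relative, had a change of 0.0031, and Slc27a1, a fatty acid transporter, -0.24. Without vehicle 4 that of Slc27a1 was -0.0096. The adipocyte carrier Fabp4 was 2.85, 17.3, 3.84 and 36.5 FPKM and 6.42, 5.44, 6.07 and 1.52, highest in the vehicle libraries with the most adipocyte markers, and its change of -0.98 was 0.32 without vehicle 2 and 4.

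Of 16 further genes of mitochondrial oxidation and electron transfer (4 higher, 12 lower, median -0.13), Acad12, an acyl-CoA dehydrogenase family member, was 5.45, 5.79, 7.61 and 5.35 FPKM after vehicle and 4.76, 4.17, 2.89 and 2.62 after BPA (log2 change -0.63, 95% confidence interval -1.03 to -0.23, adjusted p = 0.365, limma). Its 4 BPA libraries were all below the vehicle libraries. Etfb, the electron transfer flavoprotein subunit that takes electrons from the dehydrogenases, had a change of -0.61 (adjusted p = 0.449, limma). That change was -0.43 without BPA 4 and -0.30 with library weights. Acadsb, which acts on short branched chains, had a change of 0.27.

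Ketone body genes (6 tested, 2 higher, 4 lower, median -0.21) included Oxct1, the enzyme that uses ketone bodies, at 338 and 435 FPKM for vehicle and BPA (log2 change 0.38, and 0.24 without vehicle 4). Acat1, a thiolase on the route of synthesis and breakdown, had a change of -0.37, and -0.10 without BPA 4.

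Peroxisomal oxidation and assembly had 32 tested genes (9 higher, 23 lower, median -0.09). Pex6, an ATPase that recycles the import receptor, was 20.8, 23.6, 22.4 and 24.8 FPKM in vehicle 1 to 4 and 17.2, 13.8, 17.4 and 14.8 in BPA 1 to 4. Every BPA library was below every vehicle library, and Pex6 had the smallest p of the 101 genes (log2 change -0.51, 95% confidence interval -0.76 to -0.26, adjusted p = 0.287, limma). After GC correction its change was -0.23 and its unadjusted p was no longer under 0.05. Its membrane anchor Pex26 had a change of -0.30 (-0.18 after GC correction) and the thioesterase Acot8 -0.49 (-0.29 without BPA 4).

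Regulators (23 tested, 7 higher, 16 lower, median -0.06) included both partners and coactivators of PPAR-alpha. Ppargc1a, the coactivator PGC-1 alpha that raises mitochondrial gene expression, was 7.12, 8.03, 6.67 and 5.39 FPKM after vehicle and 8.04, 8.97, 9.56 and 11.4 after BPA. The groups just failed to overlap, with 8.03 the highest vehicle and 8.04 the lowest BPA value (log2 change 0.43, 95% confidence interval 0.11 to 0.75, adjusted p = 0.374, limma). Mlycd, which removes the malonyl-CoA that inhibits Cpt1a, and Rxrb, a partner of PPARs, had changes of -0.48 and -0.46, which were -0.28 and -0.22 after GC correction. Rxra had a change of -0.10, and 0.05 after GC correction.

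Lipid droplet genes and lipases (16 tested, 4 higher, 12 lower) had the lowest median, -0.31. The triglyceride lipases Pnpla2 and Lipe had changes of -0.53 and -0.60, and the lysosomal lipase Lipa 0.37. Without vehicle 4 the changes of Pnpla2 and Lipe were -0.35 and -0.37, and without vehicle 2 and 4 they were -0.28 and -0.21. Pnpla2 was 29.1, 42.9, 47.8 and 66.3 FPKM in vehicle 1 to 4 and 29.4, 30.2, 33.6 and 29.2 in BPA 1 to 4, with all 4 BPA libraries below the vehicle mean and vehicle 1 beneath each of them. Of this list Plin1, Cidec and Cidea are also on the adipocyte marker lists.

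**Figure D5:**
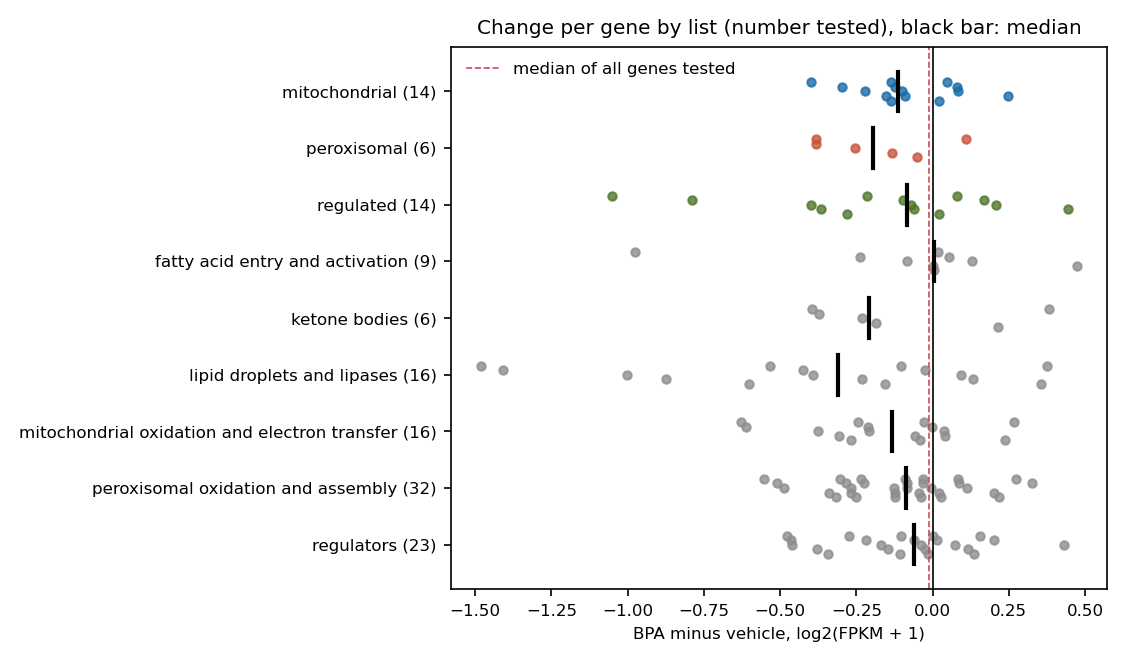
Log2 change (BPA minus vehicle, log2(FPKM + 1) scale) of every tested gene, as points, in the 3 groups of the 34 genes and in 6 further pathway lists, with the list median as a black bar and the median of all genes tested as a dashed line. Medians run from -0.31 for lipid droplet genes and lipases to 0.0031 for entry and activation, and the widest spread to the left is among the lipid droplet genes.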

How the data were processed

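The authors deposited 1 table of FPKM for 54532 genes. The submitters' processing notes name DESeq2 1.20.0 and the build GRCm38 without saying what each was for. Aligner and counter: not given in the sources used here. Columns named for BPA match the BPA libraries. The other 4, named by a letter and a replicate number, are assumed to be vehicle because the labels hold no further group. FPKM times gene length was a whole number of steps, within 0.01 reads, in 100% of low values, so read numbers were recovered for depth and for limma-voom.

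Genes averaging 0.5 FPKM or more across the 8 libraries (13376, all 34 genes among them) were fitted on log2(FPKM + 1) in R 4.3.3 by limma 3.58.1, with trended robust variance and no covariate. Benjamini-Hochberg adjustment ran over all of them and a gene was called at an adjusted p under 0.05. The log2(FPKM + 1) scale understates changes of low genes. The method was also run on simulated counts with changes of known size. A gene that did not pass the test in these data is not thereby shown to be unchanged. Levels are FPKM, given as mean ± SD (n = 4 a group). Library measures were compared by 2-sided exact permutation tests. Transcripts were compared with blastn 2.17.0, and GC content came from the longest GENCODE M21 transcript.

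All 34 genes are named. Levels in every library were set to be given for 14 core genes and for any with an unadjusted p under 0.05 or with groups that do not overlap, and Acads was added after its values were seen. Of each other list up to 3 genes with the smallest p are named, and Acsl1, Ppargc1a and Rxra always. A few genes that fall under these rules are left out of the text. Members, lists and rules were chosen with earlier results of these data known. Alternatives were a pseudocount of 0.1, other filters (none, or a mean of 5 FPKM), rescaling, quantile normalization, library weights, limma-voom, a replicate block, a GC correction, both together, a term for replicates 1 and 2 against 3 and 4, and leaving libraries out. Leaving out vehicle 2 and 4 was chosen after seeing the data. Other steps ran in Python 3.11.15 with matplotlib 3.10.9, pandas 2.3.3 and numpy 2.4.6.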

Additional observations from a re-analysis of the deposited data

Results flagged for a closer look

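Each gene's 4 values in a group were checked for a single library far from the others (Dixon's test at its 95% critical value), over 68 groups of 4, where chance marks about 1 in 20. Hadha in vehicle 3 was 22.7 FPKM, while the other 3 vehicle libraries were 18.2 to 18.9. Acaa1b in vehicle 3 was 184 FPKM, with the other 3 vehicle libraries at 93.4 to 108. Both are in vehicle 3, the library with the highest level of 16 of the 34 genes.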

How the results depend on the processing

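None of the 34 genes was called under any alternative run. The number of all genes called was 1 and became 0 after rescaling, in limma-voom and without vehicle 2 and 4, 8 with library weights, 2 with a term for replicates 1 and 2 against 3 and 4, and 0 to 4 with 1 library left out. The number of the 34 at an unadjusted p under 0.05 was 3, and it was 1 after GC correction, 1 without both replicates 4, and 1 to 4 with 1 library left out. The median of the regulated genes was -0.24 without both replicates 4, -0.30 without vehicle 2 and 4, and -0.25 to 0.013 with 1 library left out. Within replicates 1 and 2 the medians were 0.063 for all 34, 0.12 for mitochondrial and -0.012 for peroxisomal genes. Within replicates 3 and 4 they were -0.34 for all 34, -0.34 for mitochondrial and -0.30 for regulated genes. Library weights turned the mitochondrial median to 0.028. No scaling moved the median of all genes by over 0.1, and the causes of these shifts were not tested.

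Signs turned for several single genes, all with intervals that include 0. Rescaling gave Decr2 0.018. Quantile normalization gave Acadm 0.012 and Decr2 0.018. Library weights gave Cpt1a -0.083, Acadm 0.14, Acadl 0.046, Acadvl 0.0094, Hadh 0.0061, Eci1 0.053, Ppara -0.26, Acot2 -0.11, Fabp3 0.18 and Acsl1 -0.047. GC correction, with or without the replicate block, gave Hadhb -0.057, Decr1 -0.020, Fabp3 0.0025, Acsl1 -0.057 and Rxra 0.052. Without both replicates 4, Cpt1a was -0.043, Acadm 0.062, Acadl 0.036, Hadha -0.022, Hadh 0.054, Eci1 0.013, Ppara -0.21, Acot2 -0.33, Plin2 0.11, Fabp3 0.23 and Acsl1 -0.18. Without vehicle 2 and 4, Hadha was -0.031, Decr2 0.0078, Acot2 -0.099 and Fabp4 0.32.

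With 1 library left out, changes ran from -0.11 to 0.22 for Cpt1a, -0.23 to 0.17 for Acadm, -0.21 to 0.041 for Acadl, -0.012 to 0.090 for Hadha, -0.22 to 0.0040 for Hadh, -0.20 to 0.00091 for Eci1, -0.025 to 0.13 for Decr1, -0.18 to 0.032 for Decr2, -0.23 to 0.25 for Ppara, -0.49 to 0.12 for Acot1, -0.23 to 0.23 for Acot2, -0.33 to 0.19 for Acot3, -0.32 to 0.25 for Fabp3 and -0.14 to 0.20 for Acsl1.

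The replicate numbers did not pair the libraries one to one. Deviations of same-numbered libraries from their group means correlated at 0.14, 0.02, 0.14 and -0.03, and not every library correlated best with its own number. BPA 3 correlated at 0.14 and 0.19 with vehicle 3 and 4 and at -0.22 and -0.17 with vehicle 1 and 2. BPA 1 and 2 correlated at 0.02 to 0.14 with vehicle 1 and 2 and at -0.09 to -0.04 with vehicle 3 and 4. BPA 4 had no such split, at -0.03 to 0.07. With the replicate block 0 genes were called, 3 of the 34 had an unadjusted p under 0.05 and the median of the 34 was -0.11. With the block and GC correction together 0 genes were called and 1 of the 34 had an unadjusted p under 0.05.

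Low members rest on few reads, down to 67 in 1 library for Plin5 and 93 for Acot3. How much of the spread comes from read counting was not tested. The files do not show dose, time of day of sampling or feeding state.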
